A study of Mus musculus with 4 samples.

Results

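The core dyad and calcium cycling genes of the heart were read as 10 genes, chosen by name as those of the L-type channel pore, the ryanodine receptor complex, the exchanger, the calcium pump and its regulator. Every probe whose gene name on the array equalled a member was taken, which gave 26 probes for these 10 of 37074 gene names or identifiers on the array. The members were Cacna1c, Ryr2, Fkbp1b, Asph, Trdn, Casq2, Jph2, Slc8a1, Atp2a2 and Pln. All mice were female C57BL/6J, aged 6 weeks, and received intraperitoneal injections once daily for 2 days. The CY mice received cyclophosphamide (CY), an alkylating prodrug, at 400 mg/kg. The acrolein mice received acrolein, a reactive aldehyde released when CY is activated, at 5 mg/kg. The NAC + CY mice received the antioxidant N-acetylcysteine (NAC) at 200 mg/kg before CY at 400 mg/kg. The NS mice, the control, received normal saline. Hearts were taken 3 h after the last dose, and 1 single-colour Agilent array was analysed for each condition. The series' design text counts 3 independent studies without relating them to these arrays. Whether RNA of several mice was pooled for an array is not stated, so the CY heart and like terms below name an array. With a single array per condition, the differences below were not checked against replicates and carry no p-values.

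In a heart muscle cell, the dyad is the narrow cleft where a transverse tubule meets the sarcoplasmic reticulum (SR), the internal calcium store. Calcium that enters through the L-type channel opens ryanodine receptors in the SR membrane, and the released calcium starts contraction. Relaxation follows when the SR calcium pump returns calcium to the store and the sodium-calcium exchanger carries it out of the cell. Triadin, junctin and calsequestrin tie the luminal side of the release channel to stored calcium, and junctophilin holds the membranes of the cleft together.

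Each probe is a strand of 60 bases that captures a stretch of 1 transcript, so the probes of a gene report on different places in it. The probes below are shown because they read 3 of the 5 genes called lower after CY, and the calcium pump, from stretches with a reading frame free of stop codons. They are given as spotted, without capitals, because the whole strand hybridises.
Ryr2 probe 2: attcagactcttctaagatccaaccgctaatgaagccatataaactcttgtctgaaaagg
Asph probe 1: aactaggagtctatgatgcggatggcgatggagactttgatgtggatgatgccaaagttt
Slc8a1 probe 1: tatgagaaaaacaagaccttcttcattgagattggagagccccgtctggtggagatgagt
Atp2a2 probe 2: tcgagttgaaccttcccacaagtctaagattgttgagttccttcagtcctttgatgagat
Probes are numbered within a gene from the brightest. The Ryr2 probe covers 453 bases of the genome (mm9, the build of the array files, chr13:11792652-11793104), far more than the 60 bases of a probe. The Asph probe lies at chr4:9563054-9563113, the Slc8a1 probe at chr17:81844837-81844896 and the Atp2a2 probe at chr5:122910660-122910719.

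Signals are given in normalised fluorescence units, the background-subtracted signal after quantile normalisation over the 4 arrays. A change was called at the criteria of the study's methods. These ask for a ratio of at least 1.5 with a Z-score of at least 2, or a ratio of at most 0.66 with a Z-score of at most -2, and the probe had to be flagged as present (P flag) on 1 or both of the arrays compared. The Z-score is the distance of a log2 ratio from the mean of the 200 probes nearest in signal, in units of their SD. The error given after ± is that of the log2 ratio in the error model of the scanner software, which covers the spot and not the animals. Its lowest value among the members was 0.204 in every comparison, and bright probes lie at or near it. For them it is close to a constant of the model and not a measured spread. Repeated spots on an array differed by a median SD of only 0.046 to 0.050 log2 units. Of the 26 probes, 19 were flagged P on every array, 5 on some arrays and 2 on none, and every gene had at least 1 probe of the first kind. A gene is represented by its brightest probe where no probe is named.

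**Figure D1:**
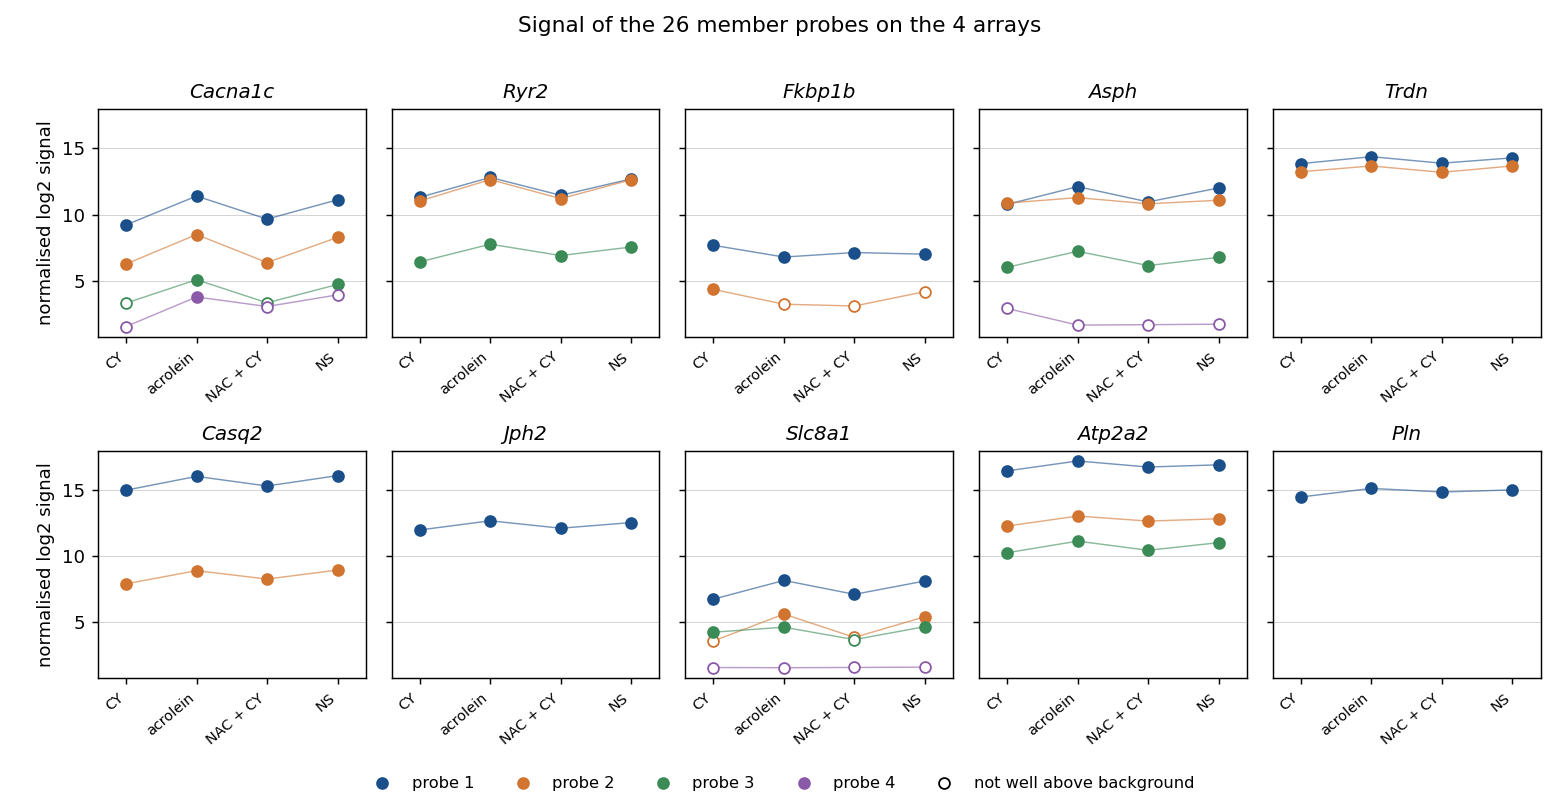
Normalised log2 signal (vertical axis) of each member probe on the CY, acrolein, NAC + CY and NS arrays (horizontal axis), 1 panel per gene and 1 colour per probe, with 1 array per condition. Open points were not well above background. In 8 genes the brightest probe was lowest on the CY array and highest on the acrolein array, while Fkbp1b was highest on the CY array.

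In the CY heart, 5 of the 10 genes were downregulated, namely Cacna1c, Ryr2, Asph, Casq2 and Slc8a1, and none was upregulated. Among all 19721 genes tested, 2.81% were called lower and 3.38% higher. The median log2 ratio of the members was -0.82, against -0.02 for all genes tested, and the members ranged between -1.89 and 0.67. The 9 genes other than Fkbp1b had ratios below 0, as did 51.6% of all genes. By probes, 8 of the 23 tested were called lower and none higher, where 2.55% of all probes were called lower and 2.84% higher. The calcium genes were listed with earlier results of these arrays known, so these counts describe the genes and are no independent support for a direction.

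Cacna1c encodes the pore of the L-type calcium channel, through which calcium enters at each beat. Its brightest probe (chr6:118537316-118537375) gave 597 units in the CY heart, 2684 in the acrolein heart, 805 in the NAC + CY heart and 2211 in the NS heart. The CY and NAC + CY hearts were low and the acrolein and NS hearts high. The log2 ratio of CY to NS was -1.89 ± 0.20 (Z-score -3.88), the lowest of the 10 genes. The next probe, 5978 bases upstream in the same transcript, gave 77.3, 360, 83.7 and 310 units in the same order of arrays and a log2 ratio of -2.004 ± 0.21 for CY (Z-score -3.46). Probe 3 was well above background only in the acrolein heart (34.1 units) and the NS heart (26.6 units). Its log2 ratio for CY was -1.40 ± 0.47 (Z-score -1.56, not called). Probe 4, designed to NM_001290335, was well above background on the acrolein array alone, so it was not tested for CY.

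Ryr2 encodes the release channel of the SR. Probe 1 (chr13:11645812-11645871) gave 2513 units after CY, 7097 after acrolein, 2787 after NAC + CY and 6577 after NS, a log2 ratio of -1.39 ± 0.20 for CY against NS (Z-score -3.81). Probe 2, which lies 7576 bases upstream in the same transcript, gave 2075, 6335, 2343 and 6302 units in that order and a log2 ratio of -1.60 ± 0.20 (Z-score -4.07). The readings from distant parts of this long transcript thus differed by about the error of either. Probe 3 targets a separate cDNA, BC043140, and was dim at 86.4 units after CY and 188 after NS. Its log2 ratio of -1.12 ± 0.21 was not called (Z-score -1.85), and the SD of its window was 0.60, against 0.36 for probe 1.

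The genes for proteins that sit on the release channel gave mixed readings. Casq2 encodes calsequestrin 2, the calcium buffer of the SR lumen. By probe 1 (chr3:101950367-101950425) it gave 31873 units after CY, 65358 after acrolein, 39596 after NAC + CY and 67980 after NS. Its log2 ratio for CY was -1.09 ± 0.20 (Z-score -2.58). The dimmer probe 2 of the gene gave -1.04 ± 0.21, and its Z-score of -1.98 fell just short of a call. Trdn, encoding triadin, which anchors calsequestrin to the channel, gave 14558 units after CY against 19705 after NS by probe 1. Its probes had log2 ratios of -0.44 ± 0.20 each, neither called, with Z-scores of -0.75 and -1.11.

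Asph encodes aspartate beta-hydroxylase and, from alternative transcripts, junctin and junctate, and its probes separated. Probe 1, designed to NM_133723, gave 1734 units after CY, 4385 after acrolein, 1978 after NAC + CY and 4095 after NS, and was called with a log2 ratio of -1.24 ± 0.20 (Z-score -2.83). Probe 2, designed to NM_001177850 and at chr4:9502593-9502652, gave 1857, 2474, 1790 and 2158 units in the same order. Its log2 ratio for CY was only -0.22 ± 0.20 (Z-score -0.36). Probe 3, designed to ENSMUST00000137375, lay between them at -0.75 ± 0.22 (Z-score -1.22). Probe 4 was not above background on any array. The call on this gene therefore rests on the transcripts that probe 1 detects, and with the median over its probes (-0.75) it was lost. Which of the targeted transcripts encode junctin is not annotated in the files.

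Fkbp1b, encoding the FK506-binding protein calstabin 2 that binds the release channel, was the only member with a log2 ratio above 0 after CY. It gave 205 units in the CY heart, 111 in the acrolein heart, 141 in the NAC + CY heart and 129 in the NS heart. The CY array was the highest and the other arrays lay closer together. The log2 ratio to NS was 0.67 ± 0.21 with a Z-score of 1.06, so it was not called. Its dimmer probe 2 was well above background in the CY heart alone, at 20.5 units, with a log2 ratio to NS of 0.17 ± 0.43 (Z-score 0.17). Fkbp1a, the related gene for the binding protein of more tissues, had a log2 ratio of -0.00 ± 0.20 after CY. Jph2, encoding junctophilin 2, was measured by 1 probe, which gave 3990 units after CY, 6432 after acrolein, 4371 after NAC + CY and 5868 after NS. The log2 ratio of CY was -0.56 ± 0.20 (Z-score -1.36, not called).

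Slc8a1 encodes the sodium-calcium exchanger. Its brightest probe gave 108 units after CY, 287 after acrolein, 139 after NAC + CY and 278 after NS, a log2 ratio of -1.37 ± 0.21 for CY (Z-score -2.47). Probe 2 (chr17:81787868-81787927) was designed to NM_011406, and probe 1 to NM_001286684. Probe 2 had 49.5 units in the acrolein heart and 43.2 in the NS heart and was not well above background in the CY and NAC + CY hearts. It was called for CY against NS, with a log2 ratio of -1.83 ± 0.43 (Z-score -2.12). Probe 3, designed to the non-coding transcript NR_104580, gave 19.2 units after CY and 25.7 after NS, near background, and was not called at -0.42 ± 0.35. Probe 4 was not above background anywhere.

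The calcium pump and its regulator showed smaller ratios. Atp2a2, which encodes the SR calcium pump SERCA2, gave 87164 units after CY, 146064 after acrolein, 106525 after NAC + CY and 119604 after NS by probe 1. Its probes had log2 ratios of -0.46, -0.55 and -0.76 (± 0.20 each) for CY, with Z-scores of -1.29, -1.21 and -1.59, and none was called. Probe 3, which gave the lowest of these ratios, was designed to NM_001110140, and probe 1 to NM_009722. The size depended on the scaling. With each array scaled to its 75th percentile, probe 1 stood at -0.69 for CY, also not called (Z-score -1.35). Pln encodes phospholamban, the small protein that restrains the pump. It gave 22276 units after CY, 34861 after acrolein, 28941 after NAC + CY and 32254 after NS. Its log2 ratio was -0.53 ± 0.20 (Z-score -1.11, not called), close to that of the pump.

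**Figure D2:**
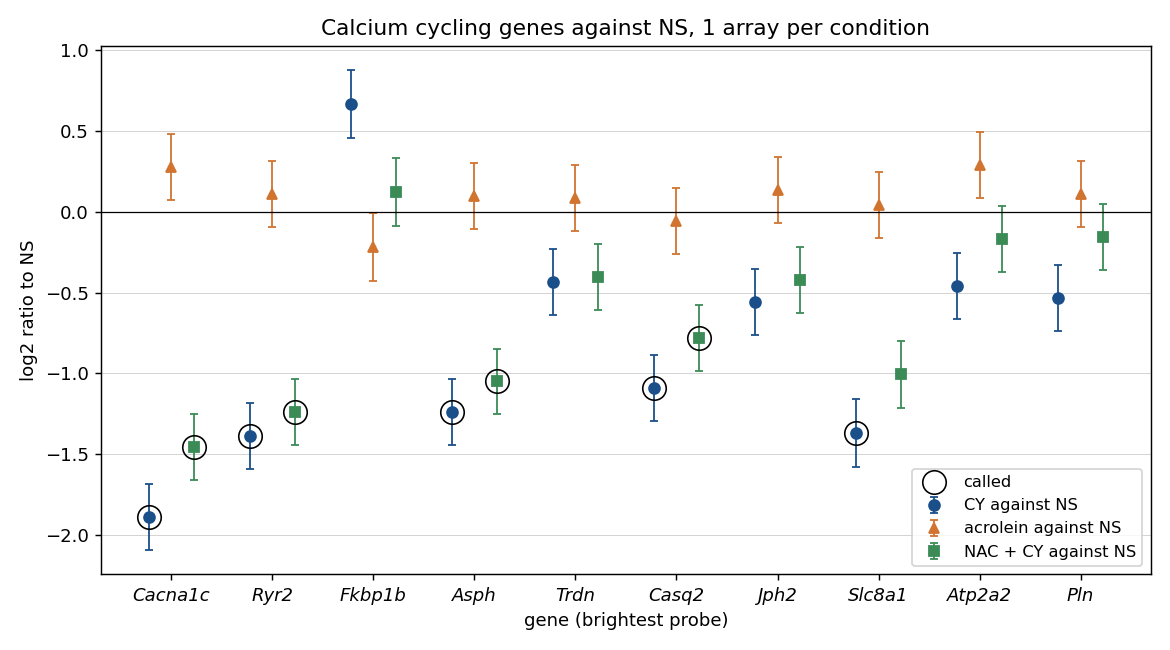
Log2 ratio to NS (vertical axis) of the brightest probe of each gene (horizontal axis) for CY (circles), acrolein (triangles) and NAC + CY (squares), with 1 array per condition. Bars are the error of the scanner software's model and black rings mark calls. Cacna1c has the lowest CY ratio (-1.89), and all acrolein ratios fall between -0.22 (Fkbp1b) and 0.29 (Atp2a2).

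In the acrolein heart, none of the 10 genes was called, where 1.29% of all 19700 genes were called lower and 1.08% higher. None of the 23 probes tested was called either, where the shares of all probes were 1.24% lower and 1.05% higher. The members' median log2 ratio was 0.10, against 0.01 for all genes, and 2 of the 10 were below 0. Atp2a2 had the highest ratio, at 0.29 ± 0.20, and Cacna1c followed at 0.28 ± 0.20. Their Z-scores of 2.60 and 2.15 passed the Z-score criterion, and the ratios missed the ratio criterion. Asph probe 3 was alike, at 0.46 ± 0.21 with a Z-score of 2.26. The remaining probes of the pump gave 0.21 and 0.12. Fkbp1b had the lowest ratio, at -0.22 ± 0.21, and Casq2 stood at -0.06. Apart from Atp2a2, Cacna1c and Fkbp1b, every gene differed from NS by less than its error. Atp2a2 also came within its error with 75th percentile scaling (0.19), and Fkbp1b with normexp background correction (-0.12). The spread of the surrounding probes was narrower here. The SD of the members' windows had a median of 0.11 for acrolein and 0.43 for CY, so a ratio of a given size has a higher Z-score in the acrolein comparison.

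**Figure D3:**
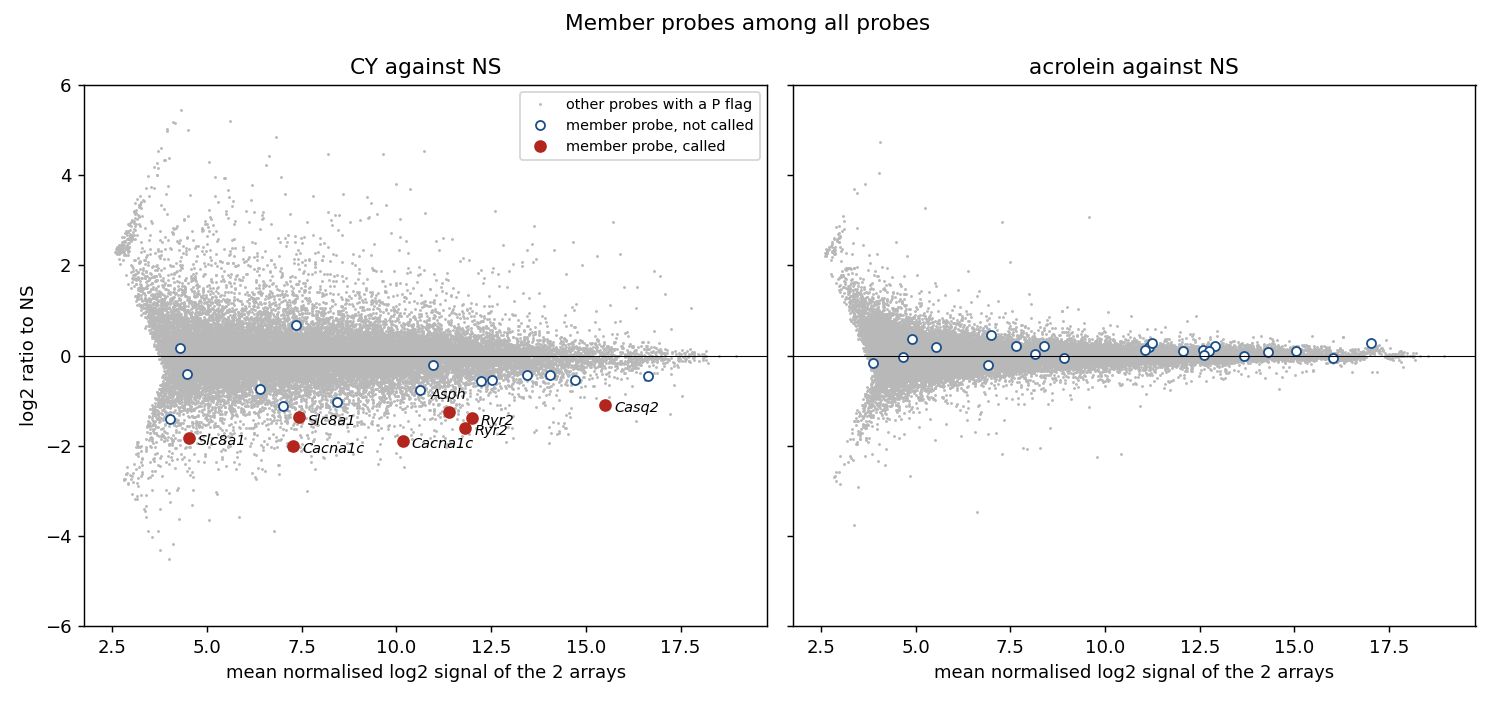
Log2 ratio to NS (vertical axis) against the mean normalised log2 signal of the compared arrays (horizontal axis) for every probe with a P flag (grey) and for the member probes (circles), in CY (left) and acrolein (right). The 8 called member probes (filled) have log2 ratios of -2.004 to -1.09 for CY, and none is called for acrolein, where the cloud is narrower.

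After NAC + CY, 4 of the 10 genes were downregulated against NS and none was upregulated, where 2.59% of all 19808 genes were called lower and 2.68% higher. These were Cacna1c (-1.46 ± 0.20, Z-score -3.10), Ryr2 (-1.24 ± 0.20, Z-score -3.26), Asph (-1.05 ± 0.20, Z-score -2.65) and Casq2 (-0.78 ± 0.20, Z-score -2.92). Slc8a1 stood at -1.01 ± 0.21 with a Z-score of -1.80 by its brightest probe. Its probe 2, not well above background after NAC + CY, was called at -1.56 ± 0.38 (Z-score -2.09). By probes, 7 of the 22 tested were lower, where the shares of all probes were 2.28% lower and 2.32% higher. The median of the members was -0.60, against -0.01 for all genes. Jph2 had a log2 ratio of -0.42 and Trdn of -0.40, neither called, whereas Atp2a2 (-0.17), Pln (-0.16) and Fkbp1b (0.12) differed from NS by less than their error. For the pump and its regulator this depended on the scaling, since with each array scaled to its 75th percentile Atp2a2 stood at -0.45 and Pln at -0.34, both beyond the error. Probe 3 of Atp2a2 gave -0.57 ± 0.20. The CY and NAC + CY comparisons use the same NS array, so their ratios are not independent of each other.

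The direct comparison of NAC + CY with CY does not use that array, and none of the 10 genes was called in it, where 2.82% of 20083 genes were called lower and 1.54% higher. Nor was any of the 21 probes tested, where the shares of all probes were 2.34% lower and 1.25% higher. The median log2 ratio of the members was 0.24, against 0.02 for all genes, with 9 of 10 above 0. Cacna1c was the highest at 0.43 ± 0.20, followed by Pln (0.38 ± 0.20), Slc8a1 (0.36 ± 0.21), Casq2 (0.31 ± 0.20) and Atp2a2 (0.29 ± 0.20). Their Z-scores lay between 0.56 and 1.47. Fkbp1b was lower after NAC + CY by a log2 ratio of -0.55 ± 0.21 (Z-score -1.67). Ryr2 (0.15), Asph (0.19), Jph2 (0.13) and Trdn (0.03) differed by less than their error. Probes of a gene did not always give the same size. For Cacna1c, probe 2 gave only 0.11 ± 0.22, and for Ryr2, the dim probe 3 gave 0.48 ± 0.21 while the bright probes gave 0.15 and 0.18. For Slc8a1 probe 3, not well above background after NAC + CY, the log2 ratio was -0.56 ± 0.41 (Z-score -0.94), opposite in sign to probe 1. Slc8a1 probe 2 stood at 0.27 ± 0.50 and was not tested, being well above background in neither heart. The median over the tested probes of Slc8a1 was -0.10. Trdn, near 0, also changed sign between its probes (0.03 and -0.04).

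**Figure D4:**
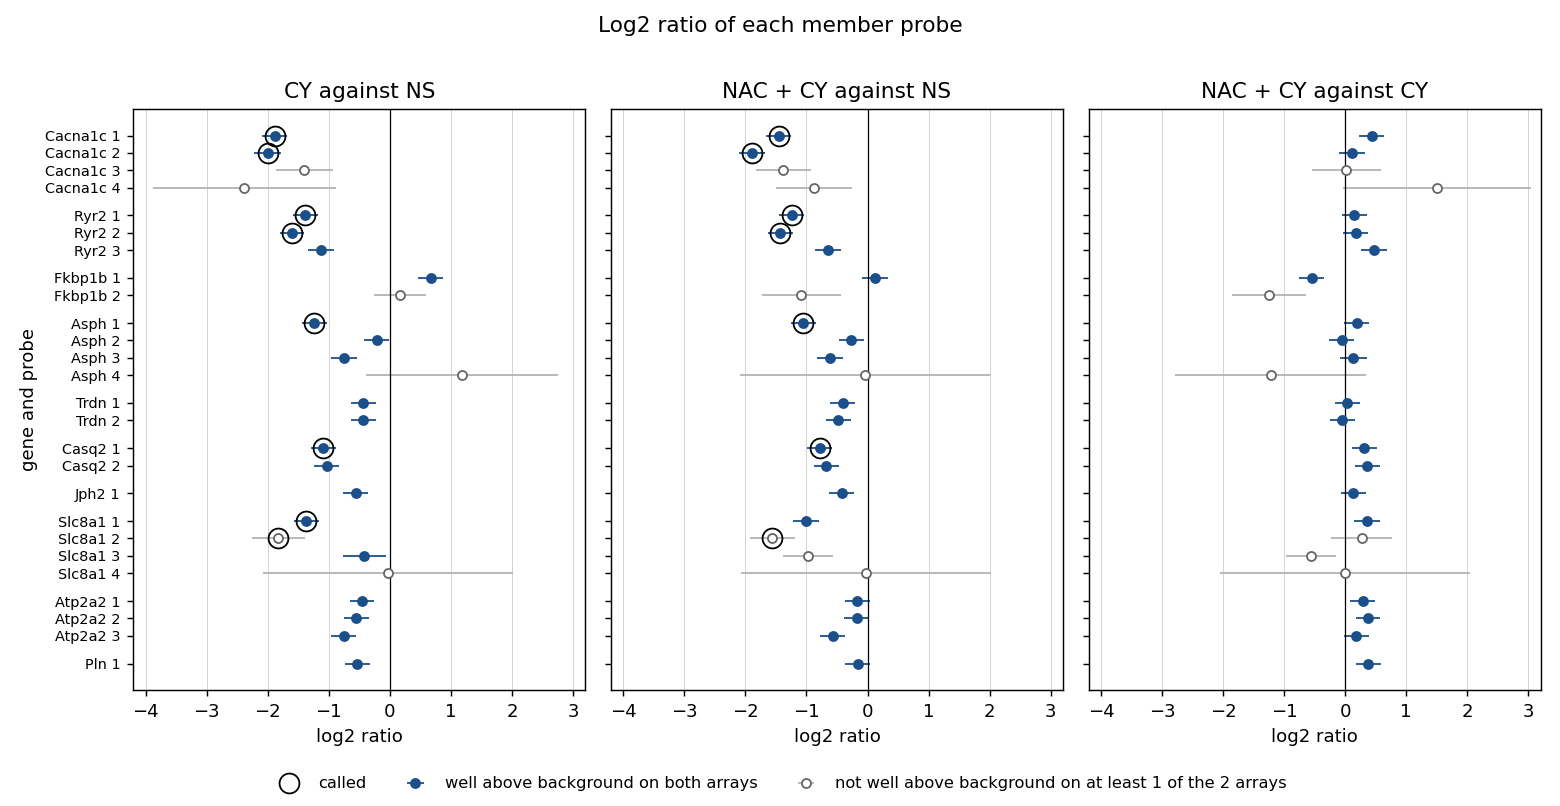
Log2 ratio (horizontal axes) of each of the 26 member probes (vertical axis, numbered within a gene from the brightest) in 3 panels (CY over NS, NAC + CY over NS, NAC + CY over CY), with bars for the error of the scanner software's model. Open points had a signal not well above background on at least 1 of the compared arrays, and black rings mark calls. The Asph probes differ, at -1.24, -0.22 and -0.75 for CY, and no probe is called between NAC + CY and CY.

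Ordered by signal, 8 of the 10 genes ran acrolein, NS, NAC + CY, CY from highest to lowest, an order that 11.7% of the 17856 genes with a P flag on all arrays shared. Casq2 differed only in having NS above acrolein, by less than the error. Fkbp1b ran the other way, with CY highest and acrolein lowest. Among these 8 genes, acrolein and NS at the top differed by less than the error in all but Cacna1c and Atp2a2. With the main normalisation, NAC + CY and NS differed by less than the error in Atp2a2 and Pln. With 75th percentile scaling both were beyond it, as was Atp2a2 with normexp background correction and with the value table. NAC + CY and CY at the bottom differed by less than the error in Ryr2, Asph, Trdn and Jph2. Among genes outside the list, those whose ratios to NS for CY, acrolein and NAC + CY lay nearest to the members' medians were an unnamed array transcript, Wfdc1, Pfkl, Arhgef7 and Col17a1, at a distance of 0.015 to 0.050 log2 units over these 3 ratios.

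Of 30 further genes of calcium cycling, 28 were matched by name on the array and 27 were detected. After CY, 2 were downregulated and 2 upregulated, with a median log2 ratio of -0.33. The lower genes were Akap6, which anchors kinase A at the nuclear envelope and SR (-1.03 ± 0.20), and Srl, encoding the SR luminal protein sarcalumenin (-0.79 ± 0.20). The higher genes were Sln, encoding the pump inhibitor sarcolipin (1.52 ± 0.20), and Tmem38b, encoding the SR counter-ion channel TRIC-B (1.22 ± 0.21, Z-score 2.00). The paralogues of members were not called after CY, among them Ryr1 (-0.33), Ryr3 (0.44), Casq1 (-0.89), Atp2a1 (-0.47), Atp2a3 (0.17), Slc8a2 (-0.66), Slc8a3 (-0.21) and Jph1 (-0.12). After acrolein, Atp2b4, a calcium pump of the cell membrane, was called lower at -1.39 ± 0.40, and was not well above background there. After NAC + CY, Tmem38b was higher at 1.45 and the calcium-binding chaperone gene Calr was lower at -0.84. Against CY, Sln (-0.97) and Bin1, a gene of transverse tubule shape (-0.65), were lower after NAC + CY.

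Markers of other cells moved on the same arrays, and their part in the readings above was not tested. The 10 markers of heart muscle cells were detected on every array, none was called after CY, and their median log2 ratio was -0.12. Their summed signals were 1707795 units in the CY heart and 1833958 in the NS heart. Most of this sum came from the brightest markers, such as Myh6, Myl2 and Myl3, at signals where quantile normalisation leaves little room to differ. The sum is thus little able to show a change in heart muscle cells. The less bright Tnnc1 and Ckm had log2 ratios of -0.55 and -0.45 after CY, and Myh7 had 0.50. Of 10 atrial markers, which include Sln, 8 were higher after CY, and their summed signal was 828920 units against 309612 in NS. It was 500839 units after NAC + CY, with 5 of 9 tested higher than in NS, and 387968 after acrolein. Bmp10 alone among them was not well above background in the acrolein, NAC + CY and NS hearts. Of 8 mesothelial markers, 7 were higher after CY, at 7124 units against 2393 in NS, and 7 were lower after acrolein, at 1228 units. All 6 hepatocyte markers were higher after NAC + CY, at 8606 units against 85.7 in NS, where Alb, Apoa1, Apoh and Fgb were not well above background. All 5 platelet markers were higher after CY, at 1995 units against 146 in NS. Against NS, 1 of 7 endothelial markers was lower after CY, 2 of 7 mural markers were lower and 2 higher, 3 of 5 lymphocyte markers tested were lower, 2 of 5 neutrophil markers and 1 of 5 adipocyte markers were higher, and none of 6 fibroblast markers was called. After acrolein, 4 of 5 adipocyte markers were lower (median log2 ratio -2.05) and 3 of 5 neutrophil markers higher (2.95). After NAC + CY, 4 of 5 adipocyte markers were higher than in NS, at 14300 units against 4071, as were 4 of 5 neutrophil markers, with a median log2 ratio of 3.44. In that heart 2 of 6 fibroblast, 3 of 7 mural, 1 of 7 endothelial and 2 of 4 lymphocyte markers tested were lower than in NS, and 1 of 10 heart muscle cell markers, Myh7, was higher. Compared directly with CY, 7 of 10 atrial, 7 of 8 mesothelial and 5 of 5 platelet markers were lower after NAC + CY. So were 3 of 6 fibroblast, 3 of 7 mural and 1 of 3 lymphocyte markers tested. All 6 hepatocyte, 4 of 5 adipocyte and 3 of 5 neutrophil markers were higher. Of 10 heart muscle cell markers, Ckm (0.59) and Myh7 (0.70) were higher, and 0 of 7 endothelial markers were called. The control genes Actb and Gapdh had log2 ratios of 0.02 to 0.05 after CY. For NAC + CY, Actb stood at -0.33 ± 0.20 against NS and -0.34 ± 0.20 against CY, beyond its error though not called. Gapdh stood at 0.06 and 0.01 in these comparisons. In whole heart tissue, fewer heart muscle cells and less RNA of a gene per cell cannot be told apart.

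Promoter sequence was at hand for 7 of the 10 genes, in RefSeq's entries for GRCm38.p6. The 250 bases before the start are shown for 3 of the downregulated genes, in the 5′ to 3′ direction of the gene. Each of the 3 was called lower after CY and has 1 promoter entry, whereas Cacna1c, also called lower, has 3 entries and is not shown. Capitals mark matches, on either strand, to motifs of factors known from heart genes. The motifs searched were that of MEF2, the CArG box, the M-CAT motif CATTCC, the GATA motif GATAA and the TATA motif TATAAA, and no overlap between matches was found in these stretches.
Casq2 (chr3:102086165-102086414): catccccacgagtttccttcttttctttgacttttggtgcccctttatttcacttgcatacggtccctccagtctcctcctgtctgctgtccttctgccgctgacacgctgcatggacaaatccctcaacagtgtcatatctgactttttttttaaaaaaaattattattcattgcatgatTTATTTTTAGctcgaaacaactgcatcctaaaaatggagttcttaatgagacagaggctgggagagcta
Slc8a1 (chr17:81738388-81738637): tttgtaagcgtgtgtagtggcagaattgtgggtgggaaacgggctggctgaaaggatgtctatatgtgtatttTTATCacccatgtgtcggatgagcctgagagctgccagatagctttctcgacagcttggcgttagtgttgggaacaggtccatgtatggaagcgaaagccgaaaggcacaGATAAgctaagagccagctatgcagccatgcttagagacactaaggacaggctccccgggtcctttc
Ryr2 (chr13:12106946-12107195): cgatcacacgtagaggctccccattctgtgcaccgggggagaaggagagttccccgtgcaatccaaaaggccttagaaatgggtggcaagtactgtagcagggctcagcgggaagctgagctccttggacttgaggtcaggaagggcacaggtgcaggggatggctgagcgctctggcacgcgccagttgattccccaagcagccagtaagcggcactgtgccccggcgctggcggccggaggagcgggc
The Casq2 stretch held 1 MEF2 match, which 2.92% of 32851 promoters of the same length hold, and the Slc8a1 stretch held 2 GATA matches, a motif found in 22.6% of them. The Ryr2 stretch held none of the motifs searched, nor did those of Cacna1c, Fkbp1b and Jph2. The CArG box is held by 1.47% of promoters and the M-CAT motif by 12.6%. Among members that were not called, the Pln stretch held 2 GATA matches and 1 TATA match, and 12.4% of promoters hold TATAAA. A match is a run of letters and was not tested for binding.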

How the data were processed

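Heart RNA was labelled with Cy3 and hybridised to 4 Agilent SurePrint G3 mouse arrays. The authors scanned them with Feature Extraction (version 10.7.1.1 in the file headers, 9.5.1.1 in the submitters' notes), and the deposited intensity values are background-subtracted spot signals, not normalized between arrays. The deposited value table holds linear signals with a median of 13.9 on every array. Here, log2 signals of 59305 non-control spots were quantile-normalised over the 4 arrays and averaged by probe. Between 47.1% and 50.0% of 56605 probes were well above background, no spot was saturated, and repeated spots differed by a median SD of 0.046 to 0.050 log2 units. The Z-score window of 200 probes is not given in the sources used here. Where a ratio of a dim probe is given, it is the probe's own, with the error of the model. Precision is limited by having 1 array per condition. The members, gene lists and genes to name (all members, a list of 30 calcium genes, the 5 nearest genes, markers) were chosen with earlier results of these data known. Of that list, those called and paralogues of members are named. Calls were tested on simulated data with known folds. The simulated spread was narrower than that of the members' windows for CY (SDs of 0.33 to 0.58), so the share of changes missed here was not measured. Alternatives covered normalisation (including the 75th percentile), normexp with an offset of 50, filters, windows, thresholds, the value table and the probe rule. Python 3.11.15, numpy 2.4.6, pandas 2.3.3, matplotlib 3.10.9, R 4.3.3 and limma 3.58.1 were used. The sequence of 1 probe is not reported here.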

Additional observations from a re-analysis of the deposited data

How the results depend on the processing

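Under 11 alternatives, Cacna1c and Ryr2 were called lower after CY and after NAC + CY in every case, no member was called after acrolein or between NAC + CY and CY, and none was called higher. Not every alternative could change a call. The filters left the Z-score of every member as it was. After acrolein and between NAC + CY and CY, no brightest probe reached the ratio criterion. The filters, windows and stricter thresholds do not alter these ratios, so they could not add a call there. A Z-score of 3 left 2 genes called lower after CY and 2 after NAC + CY (Cacna1c and Ryr2). Over the other alternatives, 4 to 5 genes were called lower after CY and 3 to 5 after NAC + CY. The median over a gene's probes ended the calls on Asph and moved the members' median log2 ratio to -0.65 for CY, -0.53 for NAC + CY and 0.15 for NAC + CY against CY. Scaling to the 75th percentile gave medians of -0.94 for CY and -0.725 for NAC + CY, while the median of all genes was -0.03 in each. A ratio of 2 ended the call on Casq2 after NAC + CY, and the narrower and the wider window added one on Slc8a1 (Z-scores -2.17 and -2.01). No called value changed sign. For NAC + CY against CY, where no gene was called, Slc8a1 was -0.10 with the median over its tested probes. In the same comparison Trdn was between -0.04 and -0.01 in 3 alternatives, and Atp2a2 was 0.18 with the value table, within its error. For NAC + CY against NS, Atp2a2 passed its error with 75th percentile scaling (-0.45), the value table (-0.27) and normexp (-0.21), and Pln with 75th percentile scaling (-0.34). No paired analysis was possible because each condition has 1 array. With 1 array per condition, differences between animals were not measured, and the probes near background give only ratios with a larger error.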
